A study of Mus musculus with 119 samples.

Results

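The 5 mouse dopamine receptor genes Drd1, Drd2, Drd3, Drd4 and Drd5 were followed through 119 RNA-seq libraries from 5 brain regions of mice given THC or vehicle in adolescence. They were taken by symbol from the 55291 genes of the deposited count files, and all 5 were present. The samples came from the prefrontal cortex (PFC), dorsomedial striatum (DMS, for which 1 label field says dorsolateral striatum), ventral tegmental area (VTA), amygdala (Amy) and nucleus accumbens (NAc). Females and males received intraperitoneal THC at 10 mg/kg or its vehicle, with 21 daily injections from postnatal day (PND) 28 to 48, behavioral testing began at PND 63, and the labels give an age of 11 weeks. The strain is C57BL/6J in the labels and C57BL/6NCrl in the study's methods, and no transgene or other manipulation is named for any group. Each combination of region, sex and treatment had 6 libraries, except male VTA vehicle with 5. The tissue was punched from frozen brain, so each library is a mixture of cells, and a lower level can mean fewer cells of a type or less RNA per cell, which cannot be told apart here. According to the methods, the regions of a mouse were sequenced as separate libraries, so a group holds different mice and the regions share mice, but the labels do not show which libraries belong to 1 mouse.

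Dopamine receptors are G protein-coupled receptors of neurons. The D1-like receptors, encoded by Drd1 and Drd5, couple to Gs and Golf proteins and raise cyclic AMP, whereas the D2-like receptors, encoded by Drd2, Drd3 and Drd4, couple to Gi and Go proteins and lower it. In the striatum, Drd1 is the classical mark of the direct-pathway medium spiny neurons and Drd2 of the indirect-pathway medium spiny neurons. Midbrain dopamine neurons carry the D2 receptor as an autoreceptor that restrains their own firing and dopamine release.

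In GENCODE vM21 on GRCm38, Drd1 lies at chr13:54051183-54055705 on the minus strand, and Drd2 at chr9:49340627-49408177, Drd3 at chr16:43754026-43822932, Drd4 at chr7:141292006-141296464 and Drd5 at chr5:38319367-38322518 on the plus strand. Drd5 is a single-exon gene, and the coding transcript of Drd2 has 8 exons. The joined exons span 3576 bases for Drd1, 2547 for Drd2, 1712 for Drd3, 2799 for Drd4 and 3152 for Drd5, and these lengths were used wherever genes were compared with each other. The RefSeq promoter windows, 250 bases before to 50 after each start site, also differed. The Drd5 window held 38 CpG dinucleotides, the upstream Drd1 window and the Drd2 window 23 each, the Drd4 window 15 and the Drd3 window 2, with a median of 7 over 32851 mouse windows. The RefSeq start of Drd3 lies inside the GENCODE gene. The sequence upstream of the annotated exons is shown for Drd1 and Drd2, which shared a high striatal level, and for Drd5, whose level was highest in the PFC. All 3 are written 5′ to 3′ from GRCm38.p6, with the GC box GGGCGG, read on both strands, in capitals. That motif was found in 35.7% of all mouse windows, and TATAAA (13.6% of windows) and TGACGTCA (1.79%) were found in none of the windows of the 5 genes. The runs printed cover chr13:54055706-54055908 (minus strand), chr9:49340153-49340402 (plus strand) and chr5:38319259-38319366 (plus strand).
Drd1: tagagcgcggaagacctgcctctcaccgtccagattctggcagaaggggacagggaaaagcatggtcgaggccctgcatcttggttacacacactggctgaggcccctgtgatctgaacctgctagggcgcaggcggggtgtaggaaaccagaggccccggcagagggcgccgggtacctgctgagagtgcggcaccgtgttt
Drd2: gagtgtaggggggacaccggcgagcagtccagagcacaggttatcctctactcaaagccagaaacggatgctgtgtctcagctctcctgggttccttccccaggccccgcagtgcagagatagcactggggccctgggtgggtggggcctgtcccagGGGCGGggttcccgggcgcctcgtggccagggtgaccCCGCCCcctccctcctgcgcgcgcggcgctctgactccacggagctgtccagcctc
Drd5: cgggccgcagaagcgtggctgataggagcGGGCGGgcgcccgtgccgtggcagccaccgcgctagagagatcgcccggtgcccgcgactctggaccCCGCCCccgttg

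Total counts ranged from 3090978 to 77042124 per library (median 22092580). In the Amy the median was 26933765 in female vehicle and 44472626.5 in female THC libraries. In males it was 28362486.5 in vehicle and 12766385.5 in THC libraries. The part of depth in the Amy values was not tested. Region markers matched the VTA and PFC labels. The dopamine transporter gene Slc6a3 had at least 445 CPM (counts scaled to a common library size) in every VTA library and at most 1.78 CPM elsewhere. The cortical glutamate transporter gene Slc17a7 had at least 1763 CPM in every PFC library and at most 1108 CPM elsewhere. Summed choroid plexus markers had 432 to 3452 CPM in Amy libraries FTL_335, FTL_337, FTL_338, FTL_343, FTL_344 and FTL_356, where no other Amy library exceeded 20.8. All of these but FTL_356 were labelled female. In DMS library FTL_285 the sum was 64.9 CPM, where no other DMS library exceeded 5.43. In 2 of the 119 libraries (Amy libraries FTL_344 and FTL_356, both THC) the sex-linked genes went against the labelled sex. Several libraries stood apart in the striatal or midbrain markers that the receptors follow, and they are named beside the values that rest on them.

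The first question was how the 5 genes are distributed over the regions. All levels are CPM scaled by TMM factors set over the 119 libraries together. Drd1 and Drd2 were highest in the DMS, Drd3 in the NAc and Drd5 in the PFC, and Drd4 was near the limit of detection in every region. The plot of levels by region shows every library.

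**Figure D1:**
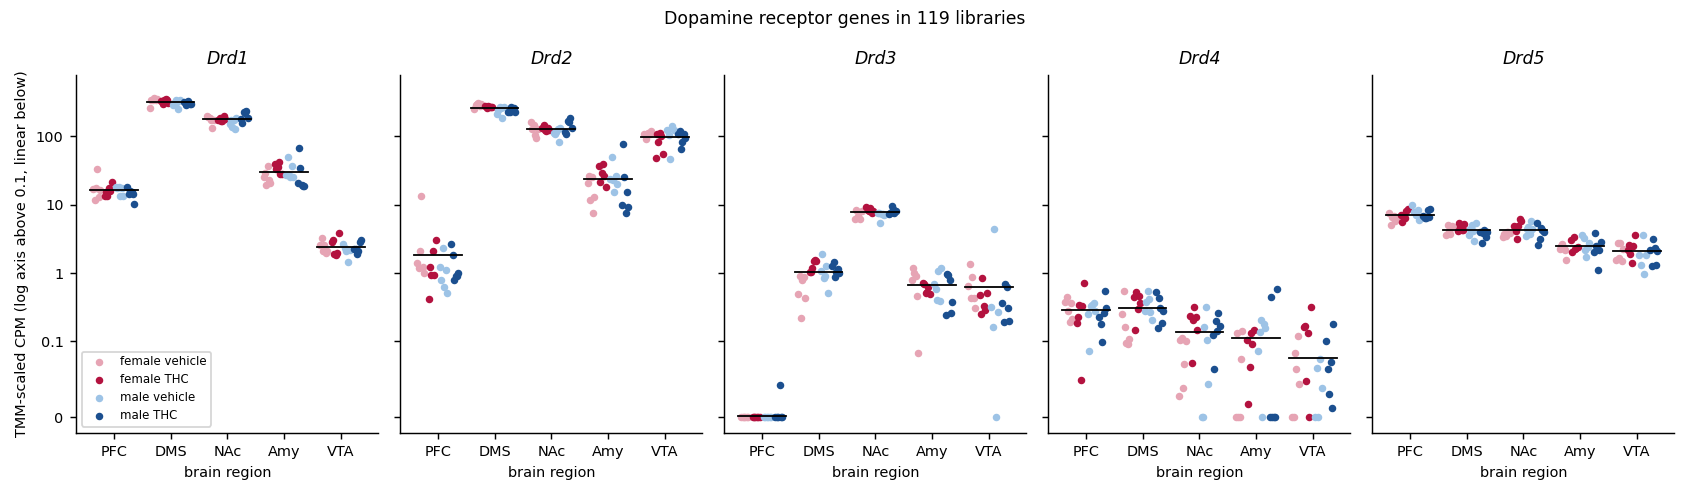
TMM-scaled CPM of the 5 dopamine receptor genes (log axis above 0.1, linear below) in each library by brain region, with sex and treatment by color and the mean of each region as a black line. Drd1 spans 1.44 to 357.5 CPM over the libraries, Drd4 does not exceed 0.72 CPM, and 23 of 24 PFC libraries sit at 0 for Drd3.

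Drd1 had 318.1 ± 29.4 CPM in the DMS (mean ± SD, n = 24), with a lowest, median and highest library of 247, 322.2 and 357.5. In the NAc it had 178 ± 26.6 CPM (129, 176 and 235). It had 30.4 ± 11.3 CPM in the Amy (18.9, 27.7 and 67.2), 16.3 ± 4.41 in the PFC (10.3, 15.9 and 33.4) and 2.40 ± 0.56 in the VTA (1.44, 2.25 and 3.82, n = 23). The libraries of DMS, NAc and Amy formed 3 bands without overlap, and those of the Amy and PFC overlapped. The library counts behind the VTA value were 7 to 223. Among vehicle libraries, all 10 pairs of regions, compared with libraries taken as independent although regions share mice, differed in Drd1 by edgeR's quasi-likelihood test with Benjamini-Hochberg adjustment, where a gene was called at an adjusted p (FDR) below 0.05 if its log2 fold change was also 0.4 or more in size. Over the 10 pairs together, 43.9% of all genes tested were called. By pair the share was 49.5% for PFC against DMS, 45.4% for PFC against NAc, 37.5% for PFC against Amy and 54.9% for PFC against VTA. It was 30.7% for DMS against NAc, 43.1% for DMS against Amy and 57.7% for DMS against VTA. The last 3 pairs had 24.9% (NAc against Amy), 51.9% (NAc against VTA) and 43.4% (Amy against VTA). The smallest step in the order was PFC below Amy, with a log2 fold change of -0.74 ± 0.12 (SE; FDR = 7.27e-07), and the step from DMS to NAc was 0.95 ± 0.11 (FDR = 1.92e-10).

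Drd2 had the same striatal order and a separate high level in the midbrain. It had 260 ± 28.5 CPM in the DMS (lowest 186, median 264.3, highest 307.8) and 128 ± 23.7 in the NAc (83.0, 128 and 183). In the VTA it had 98.5 ± 25.0 CPM (46.9, 106 and 142, n = 23), and in the Amy 24.04 ± 15.2 (7.58, 22.2 and 76.0). In the PFC it had 1.82 ± 2.56 CPM (0.41, 1.14 and 13.4). DMS libraries lay above all others, whereas NAc and VTA libraries overlapped. In vehicle libraries 9 of 10 pairs were called, and the exception was NAc against VTA, with a log2 fold change of 0.17 ± 0.23 (95% interval -0.27 to 0.62, FDR = 0.486). In THC libraries the same pair gave 0.63 (FDR = 0.00204), where 9804 of all 18158 genes tested were called. The 2 regions were counted in the same file, but whether the treatment groups differ in this step was not tested.

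The PFC value of Drd2 rested on 1 library. Female vehicle library FTL_264 had 13.4 CPM of Drd2 and 33.4 CPM of Drd1, and the other 23 PFC libraries had 1.32 ± 0.71 CPM of Drd2 (0.41 to 3.07). The same library had 21.0 CPM of Adora2a, the adenosine receptor gene of indirect-pathway neurons, against at most 4.76 CPM in the other PFC libraries. Its summed level of 8 medium spiny neuron markers was 1101 CPM, the highest of 24 libraries whose median was 689.

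Drd3, which is known for its ventral striatal expression, had 7.68 ± 0.94 CPM in the NAc (lowest 5.41, median 7.63, highest 9.49), on at least 88 counts per library. All NAc libraries were above all libraries of the other regions, where it had 1.03 ± 0.39 CPM in the DMS, 0.66 ± 0.30 for the Amy and 0.62 ± 0.89 for the VTA. In vehicle libraries the log2 fold change of DMS minus NAc was -3.05 ± 0.33 (FDR = 3.57e-11). DMS, Amy and VTA were not called against each other in vehicle libraries (FDR = 0.0750 to 0.426), and the 95% interval of DMS minus VTA was -0.02 to 1.59. In THC libraries all 3 of these pairs were called, with log2 fold changes of 1.095 for DMS minus Amy (FDR = 5.44e-08), 1.52 for DMS minus VTA (FDR = 4.73e-12) and 0.43 for Amy minus VTA (FDR = 0.0346). Of all 18158 genes tested in THC libraries, 8061, 10427 and 8238 were called for these pairs in the same order. Whether these steps differ between the treatment groups was not tested. Male VTA vehicle library FTL_371 had 4.48 CPM on 15 counts, where the other 4 libraries of its group had at most 0.32. It was the shallowest library (3090978 counts), and its summed dopaminergic neuron markers (1945 CPM) were the lowest of its group and its summed hypothalamic and medial amygdala markers (68.1 CPM) the highest of the 23 VTA libraries. Without it, the VTA mean of Drd3 was 0.45 ± 0.30 CPM (n = 22) and DMS exceeded VTA by 1.08 (FDR = 0.0065), where 10642 of all 18515 genes tested were called. In the PFC, Drd3 had 1 count in 1 of 24 libraries and 0 in the other 23. The 12 PFC vehicle libraries together had no count, which allows up to 0.0107 CPM (3 counts over their pooled total). Against that limit, Drd3 was at least 669-fold higher in NAc vehicle libraries and at least 68.1-fold higher in those of the Amy.

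Drd5 ran in another order. It had 7.12 ± 1.14 CPM in the PFC (lowest 5.07, median 6.87, highest 9.89), 4.24 ± 0.73 in the DMS (2.77, 4.18 and 5.44) and 4.24 ± 0.89 in the NAc (2.57, 4.10 and 6.08). In the Amy it had 2.47 ± 0.63 CPM (1.12, 2.36 and 3.81) and in the VTA 2.10 ± 0.72 (0.98, 2.12 and 3.58). Neighboring regions overlapped in this order. PFC exceeded DMS by a log2 fold change of 0.66 ± 0.12 in vehicle libraries (FDR = 2.95e-06). DMS minus NAc was not called (0.11 ± 0.13, 95% interval -0.14 to 0.35, FDR = 0.470). Amy exceeded VTA by 0.40 ± 0.14 (FDR = 0.0104), a value at the fold threshold that fell below it in most alternatives. PFC and DMS were counted in 1 file and NAc, Amy and VTA in another, so for a pair across files region and file cannot be told apart.

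Drd4 had 0 to 15 counts per library. Its mean was 0.29 ± 0.14 CPM in the PFC and 0.31 ± 0.15 in the DMS, against 0.14 ± 0.09 (NAc), 0.11 ± 0.14 (Amy) and 0.08 ± 0.08 (VTA). It was at 0 in 2 NAc, 8 Amy and 5 VTA libraries and in no PFC or DMS library. A count of 0 in 1 library allows between 0.0389 CPM in the deepest library and 0.971 CPM in the shallowest, which is as large as the levels themselves, and Drd4 did not pass the count filter of any comparison. The limits set by a count of 0 cover counting error only.

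Per kilobase of exon, Drd2 (102 CPM per kb) and Drd1 (89.0) led in the DMS, and in the NAc they were level at 50.4 and 49.8. The ratio of Drd1 to Drd2 per kilobase was narrow in the striatum, with a median of 0.87 in the DMS (0.73 to 0.99 over 24 libraries) and 0.99 in the NAc (0.86 to 1.18). In the Amy its median was 0.92, with a wider range of 0.63 to 2.12. In the PFC Drd1 was the higher (median ratio 9.46), followed per kilobase by Drd5 at 2.26 CPM per kb against 4.57 for Drd1. In the VTA the ratio was 0.016, with Drd2 at 38.7 CPM per kb and Drd1 and Drd5 both at 0.67. In the NAc, Drd3 (4.49 CPM per kb) was above Drd5 (1.35), and in the DMS the order was the opposite (0.60 against 1.35).

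The second question was whether adolescent THC changed the receptor genes in any region and sex. By edgeR's quasi-likelihood test 0 of 35 member tests in the 10 comparisons were called, and DESeq2 called none of those to which it gave an adjusted p. The shares called among all genes were 1.57% in female Amy, 0.0127% in female DMS and 0% in the other 8 comparisons, so few genes of any kind were called outside female Amy. At an unadjusted p below 0.05, 6 of the 35 member tests passed, where 8.15% of all gene tests did. These were Drd3 in female DMS, Drd5 in female NAc, and Drd1 and Drd2 in male NAc and in female Amy, all with a higher mean in THC libraries. Unadjusted p-values below 0.05 were themselves common in male NAc (16.7% of genes) and in female Amy (21.9%), against 8.9% in female DMS and 4.61% in female NAc. Drd1, Drd2 and Drd5 were tested in all 10 comparisons, Drd3 in 5 and Drd4 in none.

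**Figure D2:**
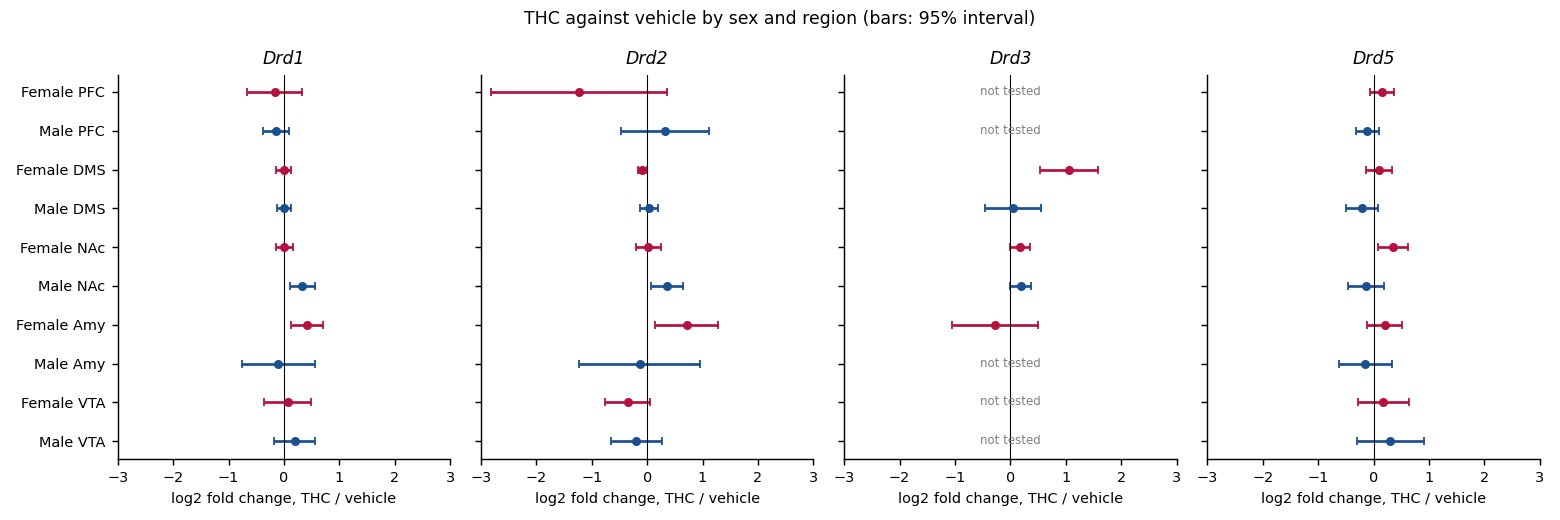
Log2 fold change of THC against vehicle for Drd1, Drd2, Drd3 and Drd5 in each sex and region, with bars of the 95% interval. Drd3 in female DMS lies farthest above 0 at 1.06, the bars of Drd2 in female PFC are the widest, and comparisons in which Drd3 failed the count filter are marked as not tested.

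Drd3 in female DMS had the smallest p of the 35. The 6 vehicle libraries ran from 0.22 to 0.91 CPM with a median of 0.64, on 4 to 20 counts, and the 6 THC libraries from 1.03 to 1.55 CPM with a median of 1.34, on 21 to 37 counts. The groups did not overlap, and 0.165% of genes in this comparison had all THC libraries above all vehicle libraries. The means were 0.62 ± 0.28 and 1.303 ± 0.24 CPM (SD, n = 6 each), and the log2 fold change was 1.06 ± 0.27 (SE; edgeR FDR = 0.247). It was 1.00 (FDR = 0.192) without female vehicle library FTL_285, the library with 206 CPM of Slc17a7 where no other DMS library exceeded 19.0. In male DMS, vehicle libraries ran from 0.52 to 1.90 CPM and THC libraries from 0.87 to 1.46, and the log2 fold change was 0.06 ± 0.26. The difference between the sexes was -1.01 ± 0.39 for male minus female (edgeR FDR = 0.768). Of the 4 DMS groups, female vehicle had the lowest mean. The summed medium spiny neuron markers overlapped in female DMS, at 10074 to 12699 CPM in vehicle and 10577 to 11714 CPM in THC libraries. The 7 direct-pathway markers other than Drd1 did not overlap, with sums of 380.5 to 468.5 CPM in vehicle and 469.7 to 533 CPM in THC libraries. Over the 24 DMS libraries after removal of group means, Drd3 did not follow these 7 markers (r = 0.04, rho 0.03). The 6 oligodendrocyte markers, which ran against Drd3 over the 24 DMS libraries after removal of group means (r = -0.73, rho -0.68, and -0.60 without the 2 libraries farthest out), summed to 6295 to 8300 CPM in vehicle and 6029 to 7145 CPM in THC libraries, with overlap. The part of these markers in the Drd3 value was not tested.

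Drd3 had a slightly higher mean in THC than in vehicle libraries of the NAc, where its level was highest, and was not called there. Female vehicle libraries had 7.30 ± 0.98 CPM (6.22 to 8.39) and female THC libraries 8.29 ± 0.63 (7.49 to 9.15). Male vehicle libraries had 7.05 ± 0.83 CPM (5.41 to 7.67) and male THC libraries 8.08 ± 0.84 (7.33 to 9.49). Within each sex the groups overlapped, and 6 of 6 THC libraries were above the vehicle median in both. Over both sexes the log2 fold change was 0.18 ± 0.06 (edgeR FDR = 0.397), with 10.2% of all genes at an unadjusted p below 0.05.

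Drd1 and Drd2 in male NAc had higher means in THC libraries, by a similar amount, and were not called. Drd1 had 159 ± 22.2 CPM in vehicle libraries (129, 164 and 183 as the lowest, median and highest) and 201 ± 31.2 in THC libraries (158, 202 and 235), a log2 fold change of 0.33 ± 0.11 (edgeR FDR = 0.216). Drd2 had 112 ± 17.1 CPM (83.0, 112 and 131) and 145 ± 30.9 (106, 149 and 183), with 0.36 ± 0.15 (FDR = 0.256). In both genes 5 of 6 THC libraries were above the vehicle median and the groups overlapped. The 8 medium spiny neuron markers, which include the phosphoprotein gene Ppp1r1b, moved with them and summed to 3618 to 5150 CPM in vehicle and 4719 to 7247 CPM in THC libraries. Their part in the result was not tested. In female NAc Drd1 had 175 ± 24.2 CPM in vehicle and 178 ± 11.6 in THC libraries, a log2 fold change of 0.01 ± 0.08, and that of Drd2 was 0.02 ± 0.11. The difference between the sexes was 0.33 ± 0.15 for Drd1 (FDR = 0.433) and 0.34 ± 0.19 for Drd2 (FDR = 0.508).

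In female Amy, Drd1 had 25.6 ± 6.40 CPM in vehicle libraries (19.3, 23.9 and 36.2) and 34.2 ± 5.59 in THC libraries (27.8, 34.3 and 41.4). The log2 fold change was 0.42 ± 0.15 (edgeR FDR = 0.127). Drd2 had 17.3 ± 7.75 CPM (7.58, 16.8 and 26.0) and 28.5 ± 8.28 (18.3, 27.7 and 39.5), with 0.71 ± 0.29 (FDR = 0.177). In both genes all 6 THC libraries exceeded the vehicle median, and the groups overlapped. The summed medium spiny neuron markers did not overlap, at 677 to 1193 CPM in vehicle and 1229 to 1750 CPM in THC libraries. Nor did the 7 projection neuron markers of cortex and basolateral amygdala, at 528 to 765 and 806 to 1150 CPM. The hypothalamic and medial amygdala markers overlapped, at 19.1 to 37.1 and 12.3 to 24.6 CPM. Over the 24 Amy libraries after removal of group means, r of the hypothalamic and medial amygdala markers was -0.62 with Drd1 and -0.52 with Drd2. That of the projection neuron markers was -0.15 with Drd1 and -0.31 with Drd2 (0.21 and -0.07 without the 2 libraries farthest out). The direct-pathway markers had r = 0.84 with Drd1, and the indirect-pathway markers 0.95 with Drd2. The choroid plexus markers also overlapped, at 8.55 to 1121 and 7.70 to 3452 CPM. The part of these markers in the receptor values was not tested. Without THC library FTL_344, one of the pair whose sex-linked genes go against the label, the values were 0.47 for Drd1 (FDR = 0.147) and 0.82 for Drd2 (FDR = 0.183).

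In male Amy the values rested on single libraries. THC library FTL_352 had 67.2 CPM of Drd1 and 76.0 of Drd2, and the other 5 THC libraries had at most 34.2 and 25.4. Its medium spiny neuron markers summed to 3072 CPM, where the group median was 936, and it had 195 CPM of Adora2a, the highest of the 24 Amy libraries. Vehicle library FTL_346 had the highest Drd2 of its group, at 50.2 CPM where the other 5 libraries had 15.3 to 26.0, and the highest medium spiny neuron marker sum there, at 2125 CPM. The log2 fold changes over all 12 libraries were -0.10 ± 0.34 for Drd1 and -0.14 ± 0.55 for Drd2, with 95% intervals up to 0.56 and 0.95. Without library FTL_352 they were -0.52 and -0.96 (edgeR FDR = 0.980 for both). Without library FTL_356, the other of the pair whose sex-linked genes go against the label, they turned to 0.0081 and 0.0344. The difference between the sexes was -0.52 ± 0.38 for Drd1 (FDR = 0.498) and -0.85 ± 0.65 for Drd2 (FDR = 0.521). Without library FTL_352 it was -0.93 for Drd1 (FDR = 0.134) and -1.66 for Drd2 (FDR = 0.141).

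**Figure D3:**
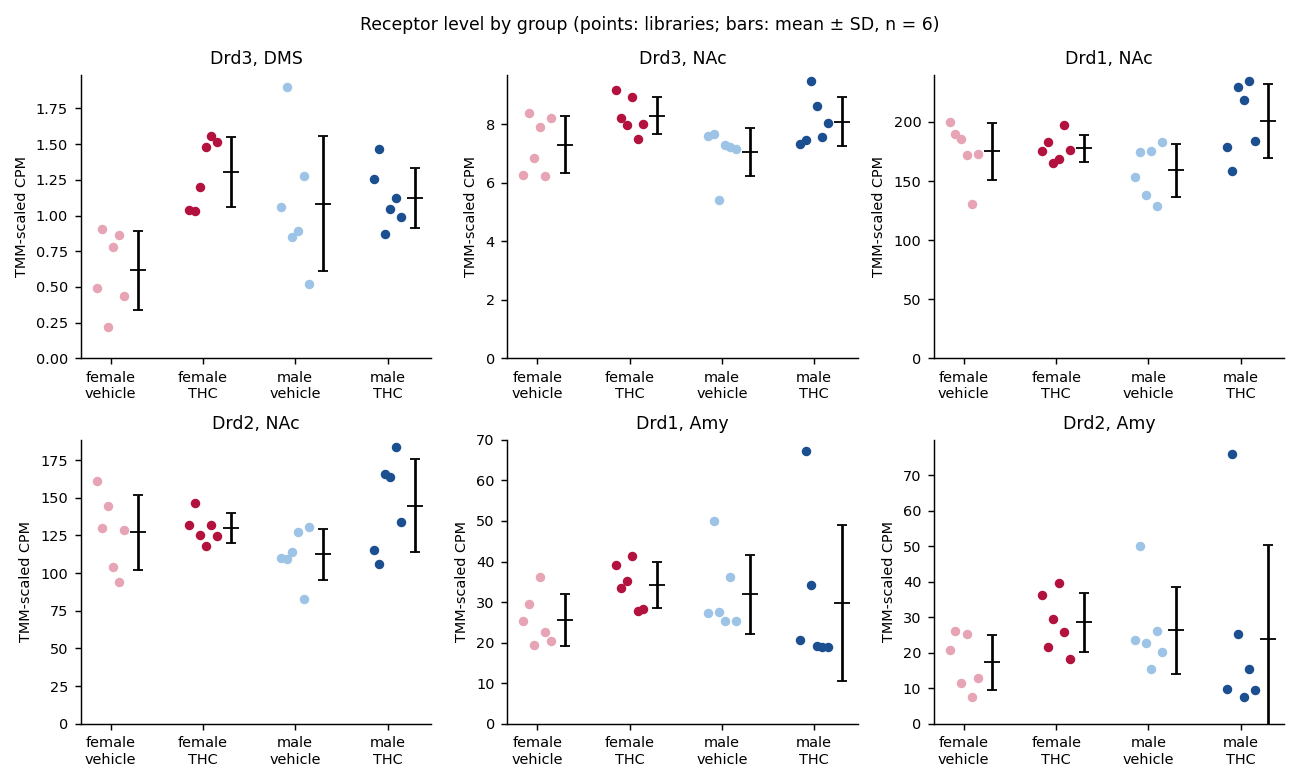
TMM-scaled CPM of Drd3 in the DMS and NAc and of Drd1 and Drd2 in the NAc and Amy, each point a library, with the mean and SD of the 6 libraries of each group beside them (the lower bar of Drd2 in male Amy THC is cut at 0). Drd3 in female DMS is the panel where the 6 THC libraries lie above all 6 vehicle libraries of the same sex, and 1 male THC library stands far above the others in both Amy panels.

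Drd2 in the VTA was the lower in THC libraries of both sexes without reaching the threshold. Female vehicle libraries had 107 ± 9.86 CPM (90.4, 107 and 121) and female THC libraries 84.1 ± 27.6 (47.7, 91.5 and 111), a log2 fold change of -0.35 ± 0.21 (FDR = 0.618) that was -0.23 without library FTL_363. The 5 male vehicle libraries had 122, 104, 46.9, 142 and 124 CPM, and the 6 male THC libraries ran from 65.4 to 119, a log2 fold change of -0.20 ± 0.23 (FDR = 0.918). As single libraries were left out, the male value ran from -0.35 without vehicle library FTL_371 to -0.091 without vehicle library FTL_372, and it was -0.11 without THC library FTL_376. The low values belonged to a few libraries: female THC libraries FTL_363 and FTL_368 had 47.7 and 54.3 CPM, and male vehicle library FTL_371 had 46.9. The same 3 libraries had the lowest sums of 10 dopaminergic neuron markers in the VTA, at 1610, 2217 and 1945 CPM, where the median of 23 libraries was 3964.

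In the remaining comparisons no receptor was called, and the larger values had wide intervals. Drd1 and Drd2 in the DMS differed between THC and vehicle by log2 fold changes of -0.09 to 0.03 in both sexes, and the 95% intervals of Drd1 ended at 0.13 in females and 0.12 in males. Drd5 in female NAc had 3.74 ± 0.24 CPM in vehicle and 4.82 ± 1.06 in THC libraries, a log2 fold change of 0.35 ± 0.14 (edgeR FDR = 0.991), and in male NAc -0.13 ± 0.16. The sex difference in that effect was -0.48 ± 0.22 (FDR = 0.436). Drd2 in female PFC gave -1.23 ± 0.81, a value set by library FTL_264, and 0.06 without it. Drd4 was examined without the count filter only: its largest fitted log2 fold change of THC against vehicle was 1.34 ± 0.57 in female NAc (edgeR FDR = 0.793), on 2 to 8 counts in THC and 1 to 4 in vehicle libraries, followed by 1.21 ± 0.93 in female VTA (FDR = 0.660). Over both sexes together 0 of 19 member tests were called, and 0 of 19 tests of the difference between the sexes, where all genes were called at 0% in 9 of these 10 fits and at 0.0059% in the Amy fit of that difference. At an unadjusted p below 0.05 there were 3 in the first set (NAc Drd1, NAc Drd3 and DMS Drd3, where 10.2% and 4.88% of genes passed in NAc and DMS) and 3 in the second (NAc Drd1, NAc Drd5 and DMS Drd3, where 11% and 5.9% passed), and DESeq2 called none.

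Between males and females 0 of 19 member tests were called, with 1 at an unadjusted p below 0.05, against 2.64% of genes called in the DMS and, in the order NAc, PFC, VTA and Amy, 0.25%, 0.237%, 0.113% and 0.0118%. In the DMS 27.8% of genes had an unadjusted p below 0.05. DESeq2 called none of them. That 1 was Drd2 in the DMS. Females had 253 to 307.8 CPM in vehicle and 256 to 281.5 CPM in THC libraries, and males 186 to 265.3 CPM in vehicle and 223 to 264.5 CPM in THC libraries. The log2 fold change of male minus female was -0.19 ± 0.05 (edgeR FDR = 0.0138), which passed the FDR and not the fold threshold. In this comparison 5.87% of genes were lower in males at that FDR. The 6 indirect-pathway markers other than Drd2 moved the same way, with a median sum of 2880 and 2793 CPM in female vehicle and THC libraries and of 2551 and 2452 CPM in male vehicle and THC libraries. Their part in the Drd2 value was not tested.

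The genes whose profile over the 119 libraries was most like that of each receptor were then ranked by Pearson's r of log2 CPM over 18932 genes. Among the closest to Drd1 were Cntnap3 (r = 0.98), Dclk3, Ppp1r7 and Smpd3, and those closest to Drd2 were B3galt5 (r = 0.97), Qrfprl, Inpp5f, Srgap1 and Kazn. For Drd3 they were Adam12 (r = 0.95), Dock11, Gpr149, Sox1 and Wnt7a, and for Drd5 Chrdl1 (r = 0.88), Dact2, Gm21093 and Cacnb4. Drd4, at its low counts, had no gene above 0.69 (1700001O22Rik, then Rgs7bp, Ttl, Klf9 and Osbp2). These values follow mostly from the differences between regions that libraries of 1 region share. Among the receptors, Drd2 and Drd3 were the most alike (r = 0.72) and Drd2 and Drd5 the least (r = -0.42).

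Within the NAc, DMS and Amy, after the mean of each group was taken away, Drd1 and Drd2 kept to the medium spiny neuron markers. Over 24 libraries each, r with the summed markers was 0.94 for Drd1 and 0.95 for Drd2 in the NAc (Spearman's rho 0.92 for both), and 0.91 and 0.93 without the 2 libraries farthest out. In the DMS the values were 0.89 for Drd1 and 0.94 for Drd2 (rho 0.82 and 0.93, and 0.79 and 0.90 without 2 libraries). In the Amy both were 0.94 (rho 0.86 and 0.89, and 0.86 and 0.88 without 2 libraries). Drd3 did not share this: r was 0.19 in the NAc and -0.34 in the DMS. In the PFC, Drd1 had r = 0.86 with the medium spiny neuron markers and with the oligodendrocyte markers (0.68 and 0.83 without 2 libraries). Drd2 there had 0.90 and 0.77 (0.80 and 0.76 without 2 libraries). With the direct-pathway markers other than Drd1, r of Drd1 was 0.81, 0.72, 0.84 and 0.30 in NAc, DMS, Amy and PFC. With the indirect-pathway markers other than Drd2 it was 0.83, 0.88, 0.92 and 0.90. In the same order Drd2 had 0.61, 0.54, 0.88 and 0.14 with the direct-pathway markers. It had 0.83, 0.82, 0.95 and 0.81 with the indirect-pathway markers. Without 2 libraries, Drd1 in the DMS had 0.36 and 0.71. In the VTA, r of Drd1 with the medium spiny neuron markers was 0.32 (0.07 without 2 libraries). Drd5 followed the projection neuron markers in the PFC (r = 0.72, rho 0.69, and 0.70 without 2 libraries). The choroid plexus markers had r = -0.76 with Drd1 in the DMS, -0.46 in the Amy, -0.31 in the VTA and -0.19 in the PFC, and 0.41 in the NAc. Among the genes closest to Drd1 within a region were Spock3, Syt4, Ghitm, Pde1b and Rasgef1a in the DMS (r = 0.92 to 0.94) and Rasgrp1, Gnal, Rbfox1 and Slmap in the NAc (0.94 to 0.95). Among those closest to Drd2 were Gcnt2, Actn2, Rasgrp2 and Scn4b in the DMS (0.94 to 0.96) and Kcnab1, Ppp3ca, Arf3, Phactr1 and Kcnip2 in the NAc (0.95 to 0.96).

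In the VTA, Drd2 moved with the dopaminergic neuron markers instead (r = 0.97, rho 0.94, and 0.95 without 2 libraries, n = 23) and not with the summed markers common to medium spiny neurons (r = -0.04). Its r with the 6 indirect-pathway markers other than Drd2 was 0.80 (rho 0.75, and 0.67 without 2 libraries). Its closest gene there was Slc6a3 (r = 0.98), followed by Gucy2c, Kcnd3, Slc10a4 and Ndnf. Drd2 ran against the hypothalamic and medial amygdala markers (r = -0.77, rho -0.63, and -0.57 without 2 libraries). Drd5 ran against the dopaminergic markers (r = -0.62, rho -0.55, and -0.62 without 2 libraries). Its r was 0.78 with the hypothalamic and medial amygdala markers (rho 0.69, and 0.64 without 2 libraries). With the interneuron markers and with the indirect-pathway markers it was -0.71 (-0.52 and -0.54 without 2 libraries). These are descriptions over libraries that share their punch and their depth.

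**Figure D4:**
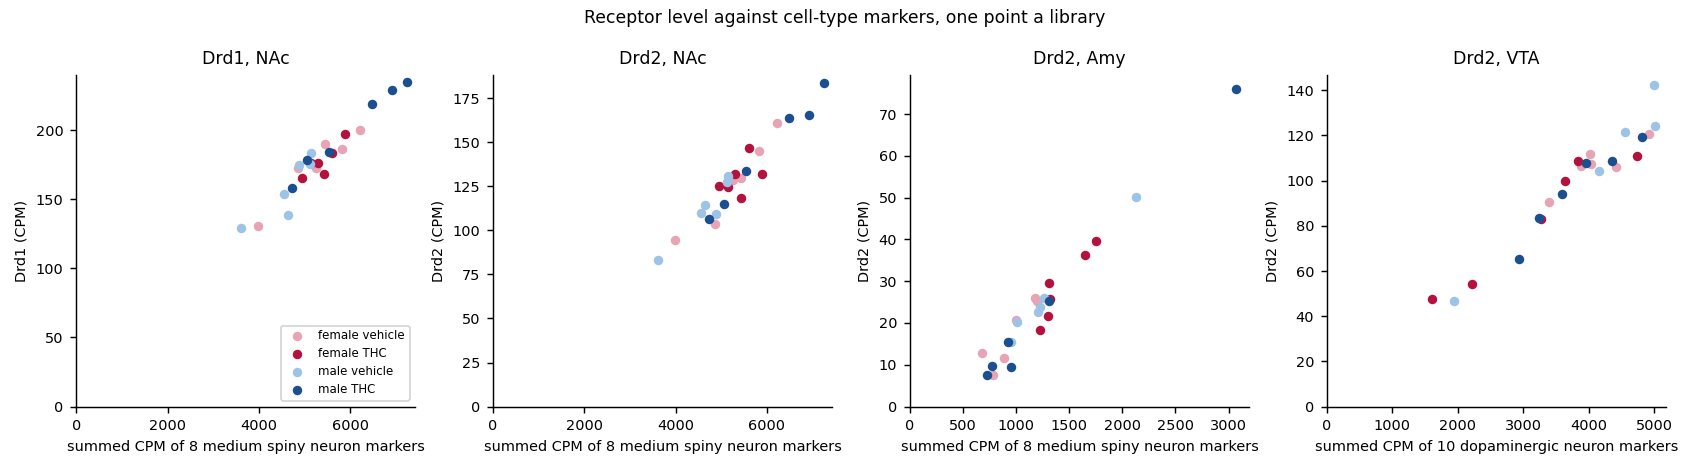
CPM of Drd1 in the NAc and of Drd2 in the NAc, Amy and VTA against the summed CPM of marker genes in the same library, with sex and treatment by color. Points climb along a line in each panel, with r from 0.94 to 0.97 after removal of group means, and the highest Amy point and the 3 lowest VTA points are the libraries named in the text.

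The pathway around the receptors was read from 37 genes in 5 groups: dopamine synthesis, storage and uptake, dopamine breakdown, G proteins, effectors, and regulators of the receptors. By THC against vehicle, 2 of the 37 were called in female Amy (1 higher and 1 lower, where 1.57% of all genes were called) and none in the other 9 comparisons, in which 35 to 37 were tested. At an unadjusted p below 0.05, 18 of 37 passed in male NAc (13 higher), where 16.7% of all genes did, and 16 of 37 in female Amy (11 higher), where 21.9% did. The median log2 fold change of the 37 was 0.06 in female Amy, where that of all genes was -0.01, and below 0.05 in size in every other comparison. Single groups of the pathway had larger medians. That of synthesis, storage and uptake was -0.37 in female VTA and 0.21 in female PFC (3 genes tested), and that of the effectors was 0.17 in male NAc. Th, Ddc, Slc18a2 and Slc6a3 of the first group are also dopaminergic neuron markers. The summed dopaminergic markers of female VTA were lowest in THC libraries FTL_363 (1610 CPM) and FTL_368 (2217 CPM). The part of these libraries in the value of -0.37 was not tested.

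The gene called lower was Th, which encodes tyrosine hydroxylase, the rate-limiting enzyme of dopamine synthesis. It had 4.18 to 5.96 CPM in the 6 vehicle libraries and 2.48 to 4.005 CPM in the 6 THC libraries of female Amy, without overlap, and 1.28% of genes there had all THC libraries below all vehicle libraries. Its log2 fold change was -0.64 ± 0.13 (edgeR FDR = 0.0253), and the FDR was 0.0519 without THC library FTL_344. The gene called higher was Pde1b, a calcium-dependent phosphodiesterase of striatal neurons, at 180 to 244 CPM in vehicle and 235 to 330.6 CPM in THC libraries. Its log2 fold change was 0.42 ± 0.10 (FDR = 0.0462), and the FDR was 0.297 when all 4 Amy groups shared 1 fit. Of the 10 effectors, 6 were higher and none lower at an unadjusted p below 0.05, a level that 21.9% of all genes passed in either direction, and the median of the group was 0.35. The medium spiny neuron markers of the same libraries did not overlap either (677 to 1193 CPM in vehicle and 1229 to 1750 CPM in THC libraries). The summed hypothalamic and medial amygdala markers overlapped, at 19.1 to 37.1 CPM in vehicle and 12.3 to 24.6 CPM in THC libraries. The part of these markers in the pathway values was not tested.

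In male NAc the smallest p-values of the pathway belonged to Maoa, which encodes monoamine oxidase A (log2 fold change -0.16 ± 0.05, FDR = 0.210), to Gnal, which encodes the Golf subunit that couples the D1 receptor (0.21 ± 0.06, FDR = 0.210), and to Adcy5, the main striatal adenylyl cyclase (0.33 ± 0.10, FDR = 0.210). In female NAc it was Slc6a3 (0.73 ± 0.22, FDR = 0.991), at under 1.15 CPM in every NAc library. In female DMS, Gnao1, Gnai3 and Ppp1r9b came first (-0.11, 0.12 and -0.10, FDR = 0.431 to 0.479), and in male DMS Th, Gnao1 and Gch1 (-0.26, 0.04 and 0.25, FDR = 1.00). In the PFC, Prkar2b and Caly were among the 3 smallest p-values in both sexes with opposite signs (-0.08 and 0.07 in females, 0.07 and -0.07 in males). In female VTA they were Gnai2, Kcnj3 and Ppp1r1b (-0.22, 0.28 and -0.28, FDR = 0.512), in male VTA Grk3, Caly and Pde10a (-0.22, 0.16 and -0.15, FDR = 0.819), and in male Amy Arrb1, Slc18a2 and Caly (-0.07, -0.31 and 0.08).

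Across regions the pathway genes differed in both directions. Of the 37 genes, 20 to 28 were called in each of the 10 pairs of vehicle regions, where 24.9% to 57.7% of all genes were. For PFC minus DMS 11 were higher and 15 lower, and for DMS minus VTA 14 were higher and 14 lower. Rgs9, the striatal regulator of G protein signaling, had 755 ± 82.0 CPM in the DMS and 19.1 ± 8.14 in the PFC (n = 24 each), and Ppp1r1b, which encodes DARPP-32, had 3000 ± 320 and 114 ± 28.6 CPM. Kcnj6, a channel subunit opened by D2-like receptors, ran the other way, with 0.80 ± 0.87 CPM in the DMS, 31.8 ± 2.81 in the PFC and 30.1 ± 6.02 in the VTA (n = 23). In the VTA, Th had 623 ± 174 CPM and Slc6a3 1181 ± 334.8, against at most 13.8 and 1.78 CPM in any library of the other regions.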

How the data were processed

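The samples were RNA-seq libraries of brain punches. The authors deposited RSEM expected counts per gene symbol in 2 files, of PFC and DMS (48 libraries) and of NAc, Amy and VTA (71). According to the submitters' processing notes, reads were trimmed with cutadapt 2.9, aligned with STAR 2.7.3a to mm10 and counted with RSEM 1.3.1, and the annotation release is not given in the sources used here. The methods name 1 male VTA vehicle sample left out for low RNA integrity before libraries were made, and 119 libraries were then sequenced. They also name 1 male VTA sample removed as an outlier after the reads were counted. By this order they are different samples, and the outlier would be among the 119 deposited libraries. Which library it is was not stated, and all 11 deposited male VTA libraries were used. Of the values, 4.75% and 5.00% were not whole and were rounded, none of them for the 5 receptors. Genes that share reads can be split by RSEM's estimate.

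Low-count genes were removed with filterByExpr of edgeR 4.0.16 in R 4.3.3, TMM factors were computed, and edgeR's robust quasi-likelihood test was run on the libraries of each sex and region (12, or 11 for male VTA), on each region with sex and treatment, alone or with their interaction, and on the 59 vehicle libraries with region and sex. P-values were adjusted over all genes tested (Benjamini-Hochberg), SE is the absolute log2 fold change over the square root of F, and 95% intervals are normal intervals from it. Correlations used log2 CPM with a prior count of 2. The groups share no replicate number. Per the methods, every region of a mouse gave its own library, so the libraries within a group are separate mice and different regions share mice. The labels do not tie the regions of a mouse together, and the fit on the 59 vehicle libraries took them as independent. Alternatives were DESeq2 1.42.0, its size factors, no filter, all 4 groups in 1 fit, single libraries left out, THC in place of vehicle libraries and each file alone. The code was tested on simulated data. The receptors, gene lists and marker lists were chosen with earlier results of these data known. Named were the 5 receptors in every comparison, the 5 genes most like each, and pathway genes that were called, or else those with the smallest p. Some of the genes most like a receptor are not reported here. Promoter sequences are RefSeq's (GRCm38.p6), found for all 5 genes.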

Additional observations from a re-analysis of the deposited data

Results flagged for a closer look

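In 10 of 97 groups of 5 or 6 libraries, 1 library lay apart from the rest of its group by Dixon's criterion. The criterion's rate of about 1 in 20 is for independent groups of continuous values. These groups reuse libraries over the receptors and some hold counts near 0, so the 10 cannot be set against that rate. Library FTL_264 of female PFC vehicle stood apart in Drd1 at 33.4 CPM (the others 11.5 to 17.6) and in Drd2 at 13.4 CPM (0.99 to 2.12). Library FTL_352 of male Amy THC stood apart in Drd1 at 67.2 CPM (18.9 to 34.2) and in Drd2 at 76.0 CPM (7.61 to 25.4), and library FTL_346 of male Amy vehicle in Drd2 at 50.2 CPM (15.3 to 26.0). Library FTL_285 of female DMS vehicle was low in Drd1 at 258 CPM (334.97 to 357.5). In Drd3, library FTL_323 of male NAc vehicle was low at 5.41 CPM (7.14 to 7.67), library FTL_371 of male VTA vehicle was high at 4.48 CPM on 15 counts (0 to 0.32), and library FTL_282 of male PFC THC had 0.0432 CPM, which is 1 count where the other 5 libraries had 0. In Drd4, library FTL_286 of female DMS vehicle had 0.54 CPM on 12 counts (0.0959 to 0.25). Of the 10 values, 5 were high values of Drd1 or Drd2 in cortical or amygdala libraries, and the 3 libraries concerned also had the highest summed medium spiny neuron markers of their groups, at 1101 CPM for library FTL_264, 3072 CPM for library FTL_352 and 2125 CPM for library FTL_346. No difference between the sexes in the THC effect reached an FDR of 0.05 in any of the 19 member tests (edgeR).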

How the results depend on the processing

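Across the alternatives, the number of receptor genes called in a comparison moved by no more than 1.5 times in any of 226 recomputed counts, and 836 of the recomputed log2 fold changes kept their direction and their side of the threshold. DESeq2 gave no adjusted p for 21 receptor values, 9 of them called by edgeR, and these were left out. Some THC effects came near the FDR threshold in an alternative (edgeR or DESeq2). In male NAc the FDR ran from 0.0513 to 0.416 for Drd1 (log2 fold changes 0.28 to 0.34) and from 0.0712 to 0.464 for Drd2 (0.28 to 0.37). For Drd1 in female Amy it ran from 0.0639 to 0.361 (0.42 to 0.47). The largest group of changes concerned Drd5 in Amy minus VTA (0.40), which fell below the fold threshold or the FDR at 0.3931 without the count filter, 0.3888 with each file alone and 0.1917 in THC libraries, and ran from 0.2908 to 0.4329 as single VTA vehicle libraries were left out. In THC libraries, Drd3 passed the threshold in DMS minus Amy (1.095), DMS minus VTA (1.523) and Amy minus VTA (0.4276), Drd2 passed in NAc minus VTA (0.6303), and Drd5 in DMS minus NAc turned to -0.0653. Drd3 in DMS minus VTA ran from 0.5307 to 1.084 as single VTA vehicle libraries were left out, and passed without library FTL_371.

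The other reversals were of values that were never called. Sex differences in the THC effect in the VTA ran, with single male vehicle libraries left out, from -0.2882 to 1.542 for Drd3, from -0.0101 to 0.2043 for Drd1 and from -0.0625 to 0.2954 for Drd5, and DESeq2 gave -0.5416 for Drd3. The THC effect on Drd3 in the VTA over both sexes ran from -0.5621 to 0.1997. Without library FTL_264 the THC effect in female PFC was 0.1026 for Drd1 and 0.0646 for Drd2, that on Drd2 over both sexes 0.1911, and the sex difference for Drd1 -0.2465. Without library FTL_352 the THC effects in the Amy over both sexes were -0.0087 for Drd1, -0.0349 for Drd2 and -0.0315 for Drd5, male minus female was -0.0933 for Drd1 and -0.1316 for Drd2, and the sex difference for Drd3 was -0.1561. Without library FTL_356 male Amy gave 0.0081 for Drd1 and 0.0344 for Drd2, and without libraries FTL_344 and FTL_356 male minus female was 0.0118 for Drd3. Drd1 gave -0.0791 in female VTA without library FTL_368 and 0.0007 in male DMS with all 4 groups in 1 fit. The cause was not tested. Leaving out libraries FTL_264, FTL_285, FTL_331, FTL_352, FTL_363 and FTL_368 was chosen after the data were seen.

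Over all genes, 1.57% of 17003 were called in female Amy, against counts of 544 with DESeq2, 126 with all 4 groups in 1 fit and 159 without library FTL_344. Female DMS had 2, and 24, 4, 5 and 6 with DESeq2, no filter, all 4 groups and without library FTL_285. DESeq2 called 5 in male NAc, 6 in female VTA and 1 in male VTA where edgeR called 0, and 1 was called in female VTA without the filter. Between the sexes the DMS had 438, and 817 without library FTL_285, and the PFC 39, and 18 without library FTL_264. DESeq2 called 65 against 42 in the NAc, 34 against 19 in the VTA and 13 against 2 in the Amy, where there were 14 without libraries FTL_344 and FTL_356 and 1 without library FTL_352. For the sex difference in the THC effect DESeq2 called 3 in the DMS against 0 and 27 in the Amy against 1, with 2 there without the filter and 0 without library FTL_352 or without libraries FTL_344 and FTL_356, and over both sexes it called 2 in the Amy against 0. No paired analysis was possible because the groups share no replicate numbers. Depth limits Drd4, at 0 to 15 counts, and Drd3 outside the NAc.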
